A study of Mus musculus with 122 samples.

Results

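Alveolar macrophages sorted as CD11b high from adult mice that lack Cebpb were set against alveolar macrophages of wild-type adults, across all genes of the count table. The comparison rests on 8 of the 122 samples of the series, chosen by their labels: 4 libraries of Cebpb -/- CD11b high cells and 4 of Cebpb +/+ cells. All 8 came from bronchoalveolar lavage of mice of strain C/EBPb tm1Pfj on a mixed background, and the genotype holds for the whole animal, not for macrophages alone. The same series holds 4 libraries of CD11b low cells of the knockout, which share the genotype but not the gate. It also holds an RNA set made beside chromatin libraries (3 Cebpb -/- and 3 Cebpb +/+ libraries of the same strain) and a second mutant, Lip (strain C/EBPtm1.2Acle, mixed background, adult), with 4 Lip/Lip CD11b high, 4 Lip/Lip CD11b low and 3 Lip +/+ libraries. The labels do not split the wild-type cells by CD11b, so the knockout and the CD11b high gate cannot be told apart in the comparison with wild type. Nothing in them ties a library to an animal, so p-values measure the spread between libraries, which may be technical.

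C/EBPβ is a basic leucine zipper transcription factor that binds DNA as a dimer with other C/EBP proteins and is made in longer, activating forms and a shorter form, LIP, that lacks most of the activating part. Alveolar macrophages live on the surface of the air spaces, take up and break down surfactant lipid, divide locally, and depend on GM-CSF and on the nuclear receptor PPARγ. CD11b, encoded by Itgam, is low on these cells at rest and high on macrophages of most other tissues and on monocytes.

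C/EBPβ chromatin immunoprecipitation in wild-type alveolar macrophages was deposited with the series, and 5 promoter windows with both a peak and a motif are printed as examples. Each runs from 250 bases before to 50 after a RefSeq start (GRCm38.p6). Each carries a peak in both deposited peak lists and holds the C/EBP motif TTGCNNAA on either strand, printed in capitals. These 5 do not show how often binding or the motif lay beside genes that changed. The windows of Marco and Siglecf, which also fell, and the other Pparg windows had neither a peak in both lists nor the motif. Pparg, Cidec, Ffar2 and Mmp8 fell in the knockout cells, and Trem2, shown as a contrast, rose. The Pparg window (chr6:115421816-115422115, plus strand) belongs to the third of its starts in the table and holds 2 motifs, which begin at -215 and -16 with the start base as 0. In the others the single motif began at -198 in Cidec (chr6:113434715-113435014, minus strand), at -23 in Ffar2 (chr7:30821090-30821389, minus strand), at -19 in Mmp8 (chr9:7558179-7558478, plus strand) and at 22 in Trem2 (chr17:48346151-48346450, plus strand).
Pparg: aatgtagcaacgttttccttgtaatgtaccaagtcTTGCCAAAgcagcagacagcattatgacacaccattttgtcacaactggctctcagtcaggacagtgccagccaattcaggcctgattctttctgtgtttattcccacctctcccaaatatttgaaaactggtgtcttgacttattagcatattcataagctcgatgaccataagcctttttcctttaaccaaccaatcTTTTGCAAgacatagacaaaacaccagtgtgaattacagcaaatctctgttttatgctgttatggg
Cidec: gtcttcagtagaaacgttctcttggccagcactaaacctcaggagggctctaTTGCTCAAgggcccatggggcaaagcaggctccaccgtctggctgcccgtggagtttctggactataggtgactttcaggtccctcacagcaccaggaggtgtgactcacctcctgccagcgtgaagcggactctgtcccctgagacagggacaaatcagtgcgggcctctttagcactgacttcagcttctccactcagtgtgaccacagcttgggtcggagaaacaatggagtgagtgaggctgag
Ffar2: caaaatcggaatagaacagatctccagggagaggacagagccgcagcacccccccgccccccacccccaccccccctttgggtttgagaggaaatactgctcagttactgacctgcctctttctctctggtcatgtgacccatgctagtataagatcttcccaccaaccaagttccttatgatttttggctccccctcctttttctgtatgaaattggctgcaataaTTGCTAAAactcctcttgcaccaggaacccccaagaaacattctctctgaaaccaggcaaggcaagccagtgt
Mmp8: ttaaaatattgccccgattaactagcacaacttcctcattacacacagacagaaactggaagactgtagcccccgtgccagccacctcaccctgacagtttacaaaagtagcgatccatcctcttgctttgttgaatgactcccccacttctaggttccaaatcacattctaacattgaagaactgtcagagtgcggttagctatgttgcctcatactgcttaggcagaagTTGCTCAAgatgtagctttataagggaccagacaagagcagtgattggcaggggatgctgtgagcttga
Trem2: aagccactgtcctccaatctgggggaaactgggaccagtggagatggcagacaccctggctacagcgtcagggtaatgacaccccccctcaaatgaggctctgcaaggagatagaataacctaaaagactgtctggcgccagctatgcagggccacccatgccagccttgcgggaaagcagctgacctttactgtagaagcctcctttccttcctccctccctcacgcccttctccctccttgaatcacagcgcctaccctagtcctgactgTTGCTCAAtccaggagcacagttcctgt

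Total counts ran between 772605 and 2088063 in the 4 knockout CD11b high libraries and between 669178 and 1420667 in the 4 wild-type libraries. Mitochondrial counts made up 0.53 to 1.65% of knockout CD11b high and 0.50 to 1.15% of wild-type libraries. Levels below are in CPM (each library's counts relative to its total, adjusted by TMM), changes are log2 fold changes of knockout CD11b high over wild type with standard errors (SE), and a gene is said to rise or fall where the Benjamini-Hochberg adjusted p of edgeR's quasi-likelihood test is under 0.05. Correlations of log2 CPM between libraries were 0.859 to 0.965 within the knockout CD11b high group, 0.919 to 0.967 within wild type, 0.845 to 0.944 between knockout CD11b high and CD11b low, and 0.694 to 0.807 between knockout CD11b high and wild type. Knockout CD11b high replicate 3, the shallowest of its group, correlated least with the others, and without it 2596 genes passed against wild type in place of 2044. Wild-type replicates 3 and 4 were the closest pair of their group (0.967). They held 1.15 and 1.05% mitochondrial counts, against 0.50 and 0.59% in wild-type replicates 1 and 2. The labels do not say whether wild-type libraries share a batch or an animal.

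Cebpb itself (chromosome 2, 167688915 to 167690432) was at 86.9, 24.7, 41.2 and 27.3 CPM in knockout CD11b high libraries, against 1458, 1235, 589 and 549 CPM in wild-type libraries. The groups did not overlap, and the log2 fold change was -4.41 (SE 0.42, adjusted p = 2.75e-07).

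Of 8502 genes tested, 2044 passed (24.0%), 1039 higher (12.2%) and 1005 lower (11.8%) in the knockout CD11b high cells. These shares are the background for the counts of list members against wild type given below. Scaling to library totals alone moved the median of all genes to -0.15 on the log2 scale, against 0.006 with TMM factors, and changed the split to 791 higher and 1377 lower. Changes over 8-fold were more often upward, in 198 genes against 105 downward. Groups without overlap of CPM were found for 2120 genes (24.9%).

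Within the C/EBP family, 3 of 6 tested genes rose and Cebpb was the only one that fell. Cebpa, which encodes a close relative that binds the same motif, rose to 144 ± 13.8 CPM in knockout CD11b high cells, against 89.5 ± 16.0 CPM in wild type (SD, n = 4 each; 0.69, SE 0.19). Cebpg rose by 0.73 (SE 0.20), a call lost without wild-type replicate 3 (adjusted p = 0.0549). Ddit3, which encodes the stress-induced C/EBP homologue CHOP, rose to 478 ± 337 CPM, against 56.7 ± 20.3 CPM (3.11, SE 0.53). Its knockout libraries were spread between 188 and 965 CPM, all above the highest wild-type library at 77.7 CPM. Cebpd did not pass (-0.26, SE 0.20, adjusted p = 0.392).

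Several of the largest falls were in genes by which alveolar macrophages are recognised. Krt79, a keratin gene used as a marker of these cells, was at 17.5, 2.55, 19.2 and 2.48 CPM in knockout CD11b high libraries, against 779, 968, 675 and 717 CPM in wild type (-6.38, SE 0.67, adjusted p = 3.62e-06). Marco, a scavenger receptor for particles and bacteria, was at 22.1, 8.50, 27.5 and 4.96 CPM, against 662, 1213, 792 and 925 CPM (-5.94, SE 0.90). In both genes the highest knockout library was far below the lowest wild-type one. Car4, a carbonic anhydrase, fell by 5.31 (SE 0.75), and the lectin gene Siglecf (-4.35, SE 0.30) stood between 11.1 and 28.8 CPM, against 309 to 437 CPM in wild type, without overlap.

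Both formyl peptide receptor genes, whose products sense bacterial peptides, fell. Fpr1 was at 4.57, 1.70, 8.24 and 1.98 CPM in knockout CD11b high libraries, against 348, 383, 444 and 406 CPM (-6.76, SE 0.57), and Fpr2 fell by 5.88 (SE 0.55). Ffar2, a receptor for short-chain fatty acids, fell to 1.12 ± 0.365 CPM, against 51.5 ± 17.8 CPM (-5.35, SE 0.43). The potassium channel gene Kcnj15 had 1 count in the 4 knockout CD11b high libraries together and 194 in the wild-type ones. Treml4, a receptor of the Trem family, had 6 counts, against 359.

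**Figure D1:**
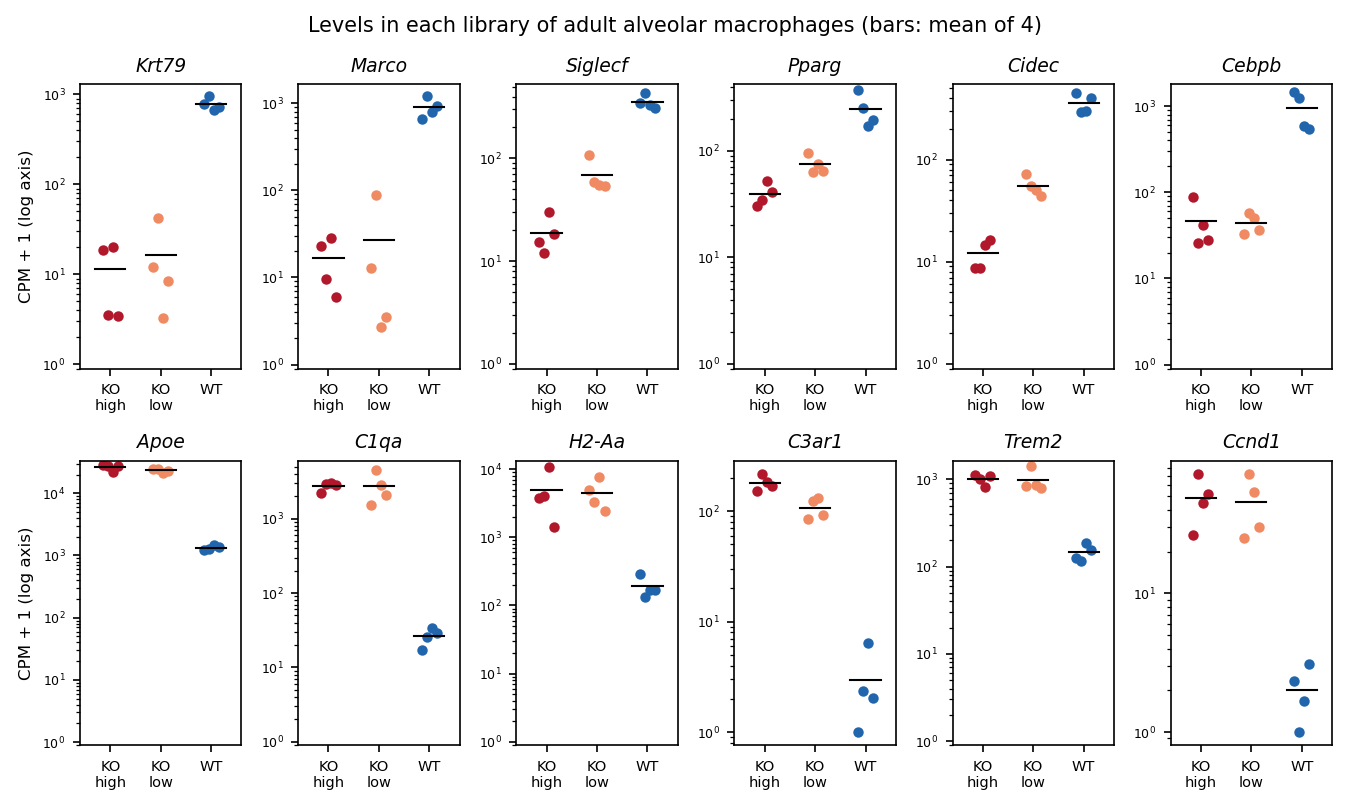
Levels of 12 genes in each library of knockout CD11b high, knockout CD11b low and wild-type alveolar macrophages (CPM + 1 on a log axis; each point is a library and each bar the mean of 4). The 6 genes of the upper row are lower in every knockout CD11b high library than in any wild-type library, with Krt79 at most at 19.2 CPM against at least 675 CPM, and the 6 of the lower row are higher, with Apoe at least at 22205 CPM against at most 1455 CPM.

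Counted over the whole list of 30 alveolar macrophage identity genes, all of which passed the count filter, 24 fell and 3 rose, and the median log2 fold change was -3.20, beside 0.006 over all genes tested. The risers were Bhlhe40 (1.23), a transcription factor gene of resident macrophages, the protease gene Ctsk (1.32) and the receptor gene Flt1 (1.61). Il18, a cytokine of the interleukin-1 family, fell to 30.7 ± 7.63 CPM, against 359 ± 22.7 CPM, and the eosinophil-type ribonuclease gene Ear1 to 10.8 ± 9.68 CPM, against 304 ± 63.4 CPM, where near-identical Ear copies may share reads. Itgax, which encodes CD11c, did not pass (-0.35, SE 0.32, adjusted p = 0.453). Its knockout CD11b high libraries ran from 185 to 839 CPM around a wild-type range of 578 to 639 CPM, and without knockout CD11b high replicate 3 it passed at -0.77 (adjusted p = 0.0393). Summed over the list, levels were 3542 to 6983 CPM in knockout CD11b high libraries and 18445 to 22007 CPM in wild type. In bulk libraries, fewer cells of a type and less RNA per cell cannot be told apart.

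PPARγ drives lipid uptake and storage in these cells, and its own transcript, Pparg (chromosome 6, 115360879 to 115490404), was at 29.0, 33.2, 50.8 and 39.7 CPM in knockout CD11b high libraries, against 368, 253, 169 and 192 CPM (-2.70, SE 0.26). The highest knockout library stood at less than any wild-type library. Cidec, which encodes a protein of the lipid droplet surface, was at 7.62, 7.65, 13.7 and 15.4 CPM, against 446, 290, 298 and 403 CPM (-4.99, SE 0.28, adjusted p = 4.89e-10). Cd36, a fatty acid and oxidised lipid receptor, fell to 19.9 ± 7.47 CPM, against 110 ± 14.9 CPM (-2.47, SE 0.28), and Fabp4, a fatty acid carrier, to 72.0 ± 26.5 CPM, against 253 ± 100 CPM (-1.80, SE 0.32). Olr1, an oxidised lipoprotein receptor (-3.22), Angptl4, an inhibitor of lipoprotein lipase (-2.91), and Gpd1, which makes glycerol phosphate for triglycerides (-3.60), fell as well. Among the 26 tested genes of the list of PPAR targets, lipid uptake and storage, 14 fell and 1 rose, with a median of -0.68, and 2 rose without knockout CD11b high replicate 3. The riser was Slc27a1, a fatty acid transporter gene, at 211 ± 89.1 CPM against 30.1 ± 2.79 CPM (2.81, SE 0.28). Plin2, Acsl1 and Dgat2 were among the 11 that did not pass (-0.52, 0.04 and -0.06).

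Fatty acid oxidation genes gave 10 lower and 0 higher of 24 (median -0.48). Acaa1b, a peroxisomal thiolase gene, fell to 18.2 ± 3.69 CPM, against 363 ± 33.8 CPM (-4.30, SE 0.29), and Cpt2, part of the carnitine shuttle into mitochondria, fell by 2.09 (SE 0.24). Respiratory chain subunits gave 3 lower and 1 higher of 28 genes (median -0.23), beside 11.8% lower and 12.2% higher over all genes tested. The list thus stood near or below those shares. It had 6 lower and 2 higher without knockout CD11b high replicate 3 and 5 lower with library totals alone. Its largest change was Ndufa4 (-2.01, SE 0.32), at 36.6, 34.9, 10.98 and 39.7 CPM in knockout CD11b high libraries, against 68.3, 111, 181 and 148 CPM.

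Of 17 tested genes of cholesterol synthesis, 12 fell and 0 rose, with a median of -1.17 and 10 to 12 lower with any 1 library left out. Sqle, which encodes squalene epoxidase, was at 4.57, 5.95, 5.49 and 3.97 CPM in knockout CD11b high libraries, against 25.4, 23.3, 33.5 and 23.8 CPM (-2.44, SE 0.38). Fdft1, squalene synthase, had a change of -2.17 (SE 0.33) and Cyp51, which removes a methyl group from lanosterol, of -1.89 (SE 0.31). Srebf2, the regulator of this pathway, fell by 1.08 (SE 0.28).

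Cholesterol efflux and LXR target genes were split, with 6 higher and 6 lower of 16 (median 0.19), though the higher count was 3 without knockout CD11b high replicate 4. Apoe, the lipid carrier apolipoprotein E (chromosome 7, 19696244 to 19701310), was at 28226, 27170, 22205 and 27107 CPM in knockout CD11b high libraries, against 1229, 1285, 1455 and 1350 CPM in wild type (4.30, SE 0.19, adjusted p = 2.97e-11). Its neighbour Apoc1, another apolipoprotein gene, went the other way, at 18.3, 7.65, 6.86 and 24.3 CPM against 68.3, 76.7, 127 and 135 CPM (-2.72, SE 0.36). Neither gene overlapped between the groups. Of the efflux pumps, Abcg1 fell to 418 ± 106 CPM, against 1189 ± 384 CPM (-1.51, SE 0.25). Abca1 passed upward at 1.35 (SE 0.36), but knockout CD11b high replicate 3, at 17.8 CPM, lay within the wild-type range of 10.7 to 25.9 CPM, and the call was lost without replicate 4 of the knockout CD11b high group (0.97, adjusted p = 0.0603). Pltp, a phospholipid transfer protein gene, rose by 1.97 (SE 0.36).

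**Figure D2:**
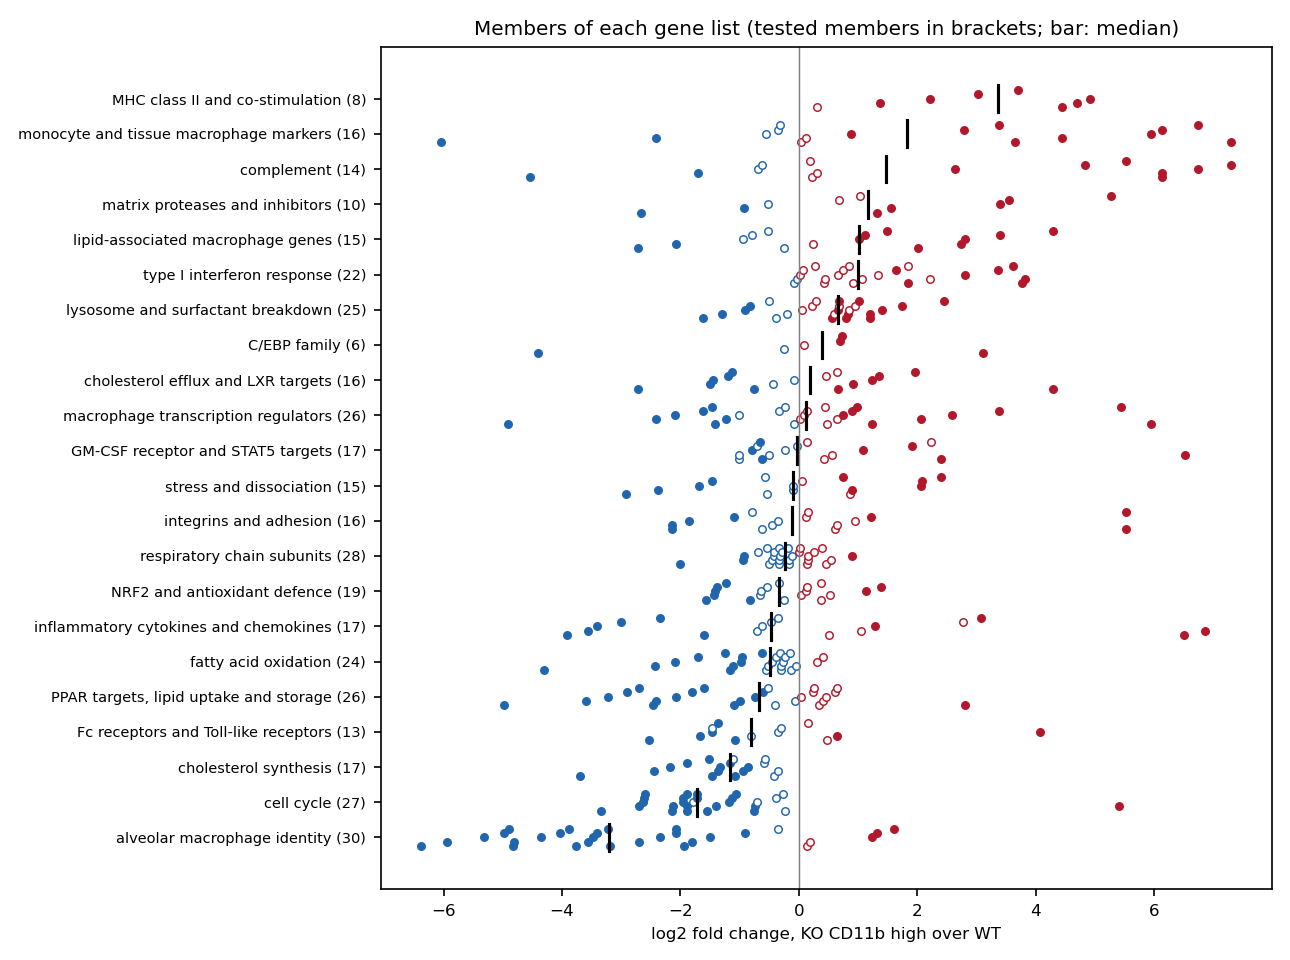
Log2 fold changes of knockout CD11b high over wild type for the tested members of 22 gene lists, ordered by their median (black bar), with filled points for genes past an adjusted p of 0.05 and hollow points for the rest. MHC class II and co-stimulation genes stand highest with a median of 3.36, and alveolar macrophage identity genes lowest with a median of -3.20.

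The list of tissue macrophage markers, which also holds monocyte genes, gave 9 higher and 2 lower of 16 tested (median 1.83). C1qa, a chain of the complement component C1q, was at 2251, 2953, 3038 and 2871 CPM in knockout CD11b high libraries, against 16.1, 24.6, 32.8 and 28.0 CPM (6.74, SE 0.36, adjusted p = 1.67e-10), and C1qc rose by 7.31 (SE 0.44). Maf, which encodes a leucine zipper regulator of macrophage identity, rose to 32.8 ± 3.11 CPM, against 3.22 ± 1.01 CPM (3.38, SE 0.34). The 2 markers that fell were Treml4 and Nr4a1 (-2.41), an orphan nuclear receptor gene. Ccr2, a receptor that marks recruited monocytes, did not pass (0.11), at 4.57 to 18.7 CPM against 1.34 to 18.7 CPM. Ly6c2, another monocyte marker, had 9 counts in all knockout CD11b high libraries and 1 in wild type.

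Complement genes gave 7 higher and 2 lower of 14 (median 1.47). C3ar1, the receptor for the C3a fragment, rose to 180 ± 27.8 CPM, against 1.94 ± 2.35 CPM (6.13, SE 0.39). C5ar1, the receptor for C5a, fell by 4.53 (SE 0.53), and C3 fell by 1.70. Among immunoglobulin receptors, the inhibitory Fcgr2b was at 517, 928, 1043 and 744 CPM in knockout CD11b high libraries, against 52.2, 38.3, 58.9 and 40.4 CPM (4.07, SE 0.28). The activating Fcgr4 was lower, at 11.4, 16.2, 22.0 and 28.7 CPM against 117, 98.6, 124 and 118 CPM (-2.52, SE 0.25). Fcgr2b and Fcgr4 thus moved in opposite directions, and neither overlapped between groups. The contrast covers these 2 genes alone. Over the list of Fc and Toll-like receptors, 2 rose and 5 fell of 13, with Tlr2 (-1.47), Tlr7 (-1.08) and the adaptor Myd88 (-1.37) among those lower. The higher count was 1 without knockout CD11b high replicate 1, 2 or 4 or wild-type replicate 1, 2 or 3, with library totals alone and with the 8 libraries alone.

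Genes of MHC class II, which presents peptides to CD4 T cells, and of co-stimulation form 1 list. Of its 8 tested members 7 rose and 0 fell (median 3.36). The list holds 13, and the rest were below the count filter. H2-Aa was at 3810, 4013, 10539 and 1393 CPM in knockout CD11b high libraries, against 292, 131, 165 and 170 CPM (4.70, SE 0.57). All 4 knockout values were above wild type, with a wide spread of their own. H2-Eb1 rose by 4.93 (SE 0.55), the invariant chain Cd74 by 3.70 (SE 0.38), and the transactivator Ciita by 3.02. Reads of the H2 genes may be shared with related copies.

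Lipid-associated macrophage genes gave 8 higher and 2 lower of 15 (median 1.01). Trem2, a lipid-sensing receptor, was at 1127, 1012, 822 and 1102 CPM in knockout CD11b high libraries, against 126, 116, 185 and 153 CPM (2.80, SE 0.24). Cd63, a tetraspanin of late endosomes, rose by 2.74 (SE 0.31), and Mmp12, the macrophage elastase, rose to 207 ± 90.1 CPM, against 20.3 ± 12.7 CPM (3.40, SE 0.41). The 2 lower members were Apoc1 and Lpl (-2.08), genes of lipid transport and lipolysis. With library totals alone 5 members were lower, and without knockout CD11b high replicate 3 there were 4. Lysosomal genes gave 11 higher and 4 lower of 25 (median 0.67), among them the protease genes Lgmn (1.74, SE 0.35) and Ctsz (1.40, SE 0.26).

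Among genes of matrix proteases and their inhibitors, 5 rose and 2 fell of 10 (median 1.18), and 1 fell without knockout CD11b high replicate 1 or 2 or wild-type replicate 2. Mmp14, a membrane-bound metalloprotease gene, was at 110, 144, 132 and 138 CPM in knockout CD11b high libraries, against 2.68, 5.48, 4.02 and 1.04 CPM (5.27, SE 0.43). Timp2, an inhibitor that also takes part in activation of MMP2 by MMP14, rose to 1986 ± 382 CPM, against 168 ± 31.6 CPM (3.56, SE 0.24), while the collagenase gene Mmp8 fell by 2.66 (SE 0.51). Hpse, which encodes the heparan sulfate cleaving heparanase, rose to 232 ± 82.1 CPM, against 1.19 ± 0.865 CPM (7.39, SE 0.50). Integrin and adhesion genes gave 3 higher and 4 lower of 16 (median -0.11), and 5 higher and 7 lower without knockout CD11b high replicate 3. Itgb7 rose by 5.53 (SE 0.67) and Itgal, part of LFA-1, fell by 2.14 (SE 0.26).

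Some of the risers were at or near 0 in wild type. Rasgrp3, an activator of Ras proteins, had 253 counts in the knockout CD11b high libraries and 0 in the wild-type ones, which puts it at least 64.0-fold higher against a floor of 3 counts over the wild-type group. Sorl1, a sorting receptor gene, had 376 counts against 1, a ratio of 283 with a 95% counting interval of 50.5 to 11200. Rai14, an actin-associated protein gene, had 381 counts against 1 (ratio 287, interval 51.1 to 11348). Cd109, a surface antigen gene, had 673 against 3 (ratio 169, interval 57.5 to 820). These intervals cover counting error only.

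Genes of the GM-CSF pathway, on which alveolar macrophages depend, gave 4 higher and 3 lower of 17 (median -0.02). The lower count was 1 without knockout CD11b high replicate 1, wild-type replicate 1 or wild-type replicate 2, and 5 with library totals alone. Csf2ra, the specific receptor chain, was at 285, 247, 349 and 300 CPM in knockout CD11b high libraries, against 253, 312, 258 and 251 CPM (0.14, SE 0.19, adjusted p = 0.647), and the 2 groups overlapped. Csf2rb, the signalling chain, fell to 581 ± 21.1 CPM, against 918 ± 99.6 CPM (-0.66, SE 0.17, adjusted p = 0.00756), where Csf2rb2 may share reads. The feedback inhibitor Socs3 (2.40, SE 0.34), the kinase gene Pim1 (1.90, SE 0.30) and the survival gene Bcl2 were higher. Bcl2 had 421 counts against 3, a ratio of 106 (interval 35.9 to 514).

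Of 27 tested proliferation genes, 21 were called lower and 1 higher (median -1.72), with 17 to 27 lower when any 1 library was left out. The list holds 41, and the rest were below the count filter. A gene can pass that filter by its level in wild type alone, and the part of this in the count was not tested. Bub1b, a mitotic checkpoint gene, was at 1.52, 0, 2.75 and 2.97 CPM in knockout CD11b high libraries, against 13.4, 32.9, 15.4 and 19.7 CPM (-3.34, SE 0.65). Mki67, the Ki-67 antigen gene, was at 12.2, 10.2, 15.1 and 19.8 CPM, against 17.4, 108, 108 and 128 CPM (-2.64, SE 0.48), so wild-type replicate 1 lay within the knockout range. The riser was Ccnd1, which encodes cyclin D1 of the G1 phase, at 47.8 ± 19.1 CPM against 1.02 ± 0.889 CPM (5.41, SE 0.59).

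Inflammatory genes did not share a direction: 4 rose and 6 fell of 17 (median -0.46). The chemokine Ccl2, which attracts monocytes, was at 37.3, 158, 174 and 223 CPM in knockout CD11b high libraries, against 0, 0, 0.669 and 5.18 CPM (6.50, SE 0.89), and its neighbour Ccl7 had 244 counts against 1 (ratio 184, interval 32.6 to 7278). The neutrophil-attracting Cxcl3 fell to 1.62 ± 1.78 CPM, against 20.1 ± 13.3 CPM (-3.91, SE 0.65), and the cytokine genes Il1b (-3.41) and Tnf fell as well. In the type I interferon response, 7 of 22 genes were called higher and 0 lower (median 1.00). Oasl2, an oligoadenylate synthetase-like gene, was at 29.7, 40.0, 94.7 and 82.8 CPM, against 2.68, 2.74, 5.35 and 5.18 CPM (3.81, SE 0.57), and Ifi44 rose by 3.61 (SE 0.67). Isg15 (0.43) and Ifit1 (0.75) did not pass.

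Among macrophage transcription regulators 9 rose and 7 fell of 26 (median 0.11). Id3, an inhibitor of E proteins, had the largest fall, at 4.57, 2.55, 4.12 and 3.47 CPM in knockout CD11b high libraries, against 122, 179, 61.6 and 94.2 CPM (-4.91, SE 0.44, adjusted p = 7.96e-08). Antioxidant genes of the NRF2 list gave 2 higher and 6 lower of 19 (median -0.33), with the haem oxygenase gene Hmox1 at -1.57 (SE 0.34). Stress and dissociation genes gave 5 higher and 4 lower of 15 (median -0.09), Jun at 2.06 and Fos at -1.47. The lower count was 2 without knockout CD11b high replicate 1 or 2, without wild-type replicate 3 and without the count filter.

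Markers of other cells were read from lists of their own. Defining genes of T cells (Cd3e), B cells (Cd79a) and eosinophils (Prg2, Epx, Ccr3) had 0 counts in all 8 libraries. So did those of mast cells and basophils (Cpa3, Fcer1a), fibroblasts (Col1a1) and endothelium (Cdh5). Of epithelial genes, Sftpc had 2 counts in each group, Scgb1a1 22 in knockout CD11b high against 12 in wild type, and Ager 9 against 4. In the same order, Nkg7 of lymphocytes had 1 against 0 and Cd209a of dendritic cells 9 against 1. The erythroid Hbb-bs had 176 against 107 and Alas2 5 against 7. Single members still moved: Il7r (84.0 ± 20.8 CPM against 2.39 ± 1.73 CPM), the only one of 13 lymphocyte markers that passed the count filter, Hopx (175 ± 23.8 CPM against 23.2 ± 7.01 CPM) of 14 epithelial markers, and Vwf (208 ± 68.4 CPM against 85.4 ± 42.6 CPM) of 12 stromal and endothelial ones, where the groups overlapped. They carried the sums of their lists, which ran from 72.4 to 119 CPM against 0 to 7.25 CPM for lymphocytes, 155 to 210 CPM against 19.2 to 40.4 CPM for epithelium and 150 to 319 CPM against 41.5 to 151 CPM for stroma and endothelium. With 1 library left out, up to 2 lymphocyte and up to 2 stromal and endothelial markers were called higher. Neutrophil markers gave 2 lower, S100a8 and Mmp8, of 4, and their sum was 28.2 to 70.4 CPM against 62.9 to 97.7 CPM. Dendritic cell markers gave Kit higher and Ffar2 lower of 3, at sums of 54.9 to 86.7 CPM against 44.8 to 83.5 CPM, with Flt3 and Zbtb46 at 5 and 8 counts against 3 and 1. Erythroid markers passed the filter in 4 cases with no call, and their list summed to 59.0 to 229 CPM against 4.02 to 152 CPM. The part of any of these cells in the results was not tested.

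Cells of the same genotype on either side of the gate were compared directly to see what sets CD11b high apart from CD11b low. Of 8502 genes, 323 passed (3.80%), 101 higher (1.19%) and 222 lower (2.61%) in knockout CD11b high. The count depends on single libraries and was 152 without knockout CD11b low replicate 1, 193 and 208 without knockout CD11b high replicates 2 and 4, and 210 without knockout CD11b low replicate 3. Itgam, the gene of the gated protein and therefore no independent finding, was at 61.7, 129, 227 and 114 CPM in CD11b high, against 13.8, 19.1, 18.7 and 47.8 CPM in CD11b low (2.46, SE 0.39), with 1.04 to 4.69 CPM in wild type.

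Beyond the gate, knockout CD11b high cells had more of several genes that wild-type cells hardly carried. Igf2r, which sorts lysosomal enzymes, was at 44.2, 28.9, 30.2 and 25.3 CPM in CD11b high, against 0, 1.73, 4.53 and 6.29 CPM in CD11b low (3.34, SE 0.51). Gprc5b, an orphan receptor gene, rose by 3.29 (SE 0.55) at 160 counts in CD11b high and 0 in wild type. Mmp14 (2.39, SE 0.32), Hpse (2.16, SE 0.31) and Maf (1.75, SE 0.27) were higher too. So were Timp2 (1.36, SE 0.22) and Fcgr2b (0.95, SE 0.24), which wild-type cells did carry. C1qa, Apoe, Trem2 and H2-Aa did not pass in this comparison (0.02, 0.17, 0.05 and 0.12), with standard errors of 0.27, 0.17, 0.22 and 0.48.

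Some alveolar and lipid genes were lower in CD11b high cells than in CD11b low cells of the same genotype, and most members of both lists did not pass. Of the 30 identity genes 13 fell and 0 rose (median -0.92). Against wild type, with which both knockout groups were compared, knockout CD11b low cells had 18 of these 30 lower (median -1.47) and 3 higher, where 6.83% and 8.29% of all genes were called lower and higher. In the direct comparison of CD11b high with CD11b low, 11 of the 26 PPAR and lipid genes fell and 0 rose (median -0.45). Cd36 was at 9.14, 21.3, 26.1 and 23.3 CPM in knockout CD11b high, against 99.5, 52.0, 78.2 and 88.0 CPM in knockout CD11b low (-2.03, SE 0.28), where wild type had 92.2 to 126 CPM. Cidec (-2.28, SE 0.28), Acaa1b (-2.47, SE 0.28), Gpd1 (-2.86, SE 0.51) and Apoc1 (-2.93, SE 0.36) fell as well. Pparg passed narrowly (-0.99, SE 0.26, adjusted p = 0.0403), as did Fabp4 (-1.23, SE 0.32, adjusted p = 0.0360). Each of these 2 calls was lost in 5 of 8 fits that left out 1 library, with log2 fold changes that stayed between -1.25 and -0.83 there. Over the 17 cholesterol synthesis genes the median difference was -0.11.

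Some large falls against CD11b low cells were in genes whose CD11b low level stood near, below or above that of wild type. Ucp3, a mitochondrial carrier gene, was at 8.38, 5.10, 16.5 and 15.9 CPM in knockout CD11b high, 154, 57.2, 94.0 and 81.7 CPM in knockout CD11b low and 167, 101, 101 and 80.8 CPM in wild type. Its direct difference was -3.10 (SE 0.36, adjusted p = 5.94e-05). Epcam, a cell adhesion molecule gene, fell by 3.55 against CD11b low (SE 0.54). Adcy3, an adenylyl cyclase gene, was at 19.9 ± 8.27 CPM in knockout CD11b high, 159 ± 52.6 CPM in knockout CD11b low and 555 ± 181 CPM in wild type. Hpgd, which inactivates prostaglandins, was at 6.86, 7.65, 8.24 and 7.93 CPM in knockout CD11b high, against 256, 57.2, 112 and 119 CPM in knockout CD11b low (-4.16, SE 0.41), and wild type lay at 12.3 to 26.8 CPM. Its fall against wild type (-1.30, adjusted p = 0.0465) was lost in 6 of 8 fits without 1 library.

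**Figure D3:**
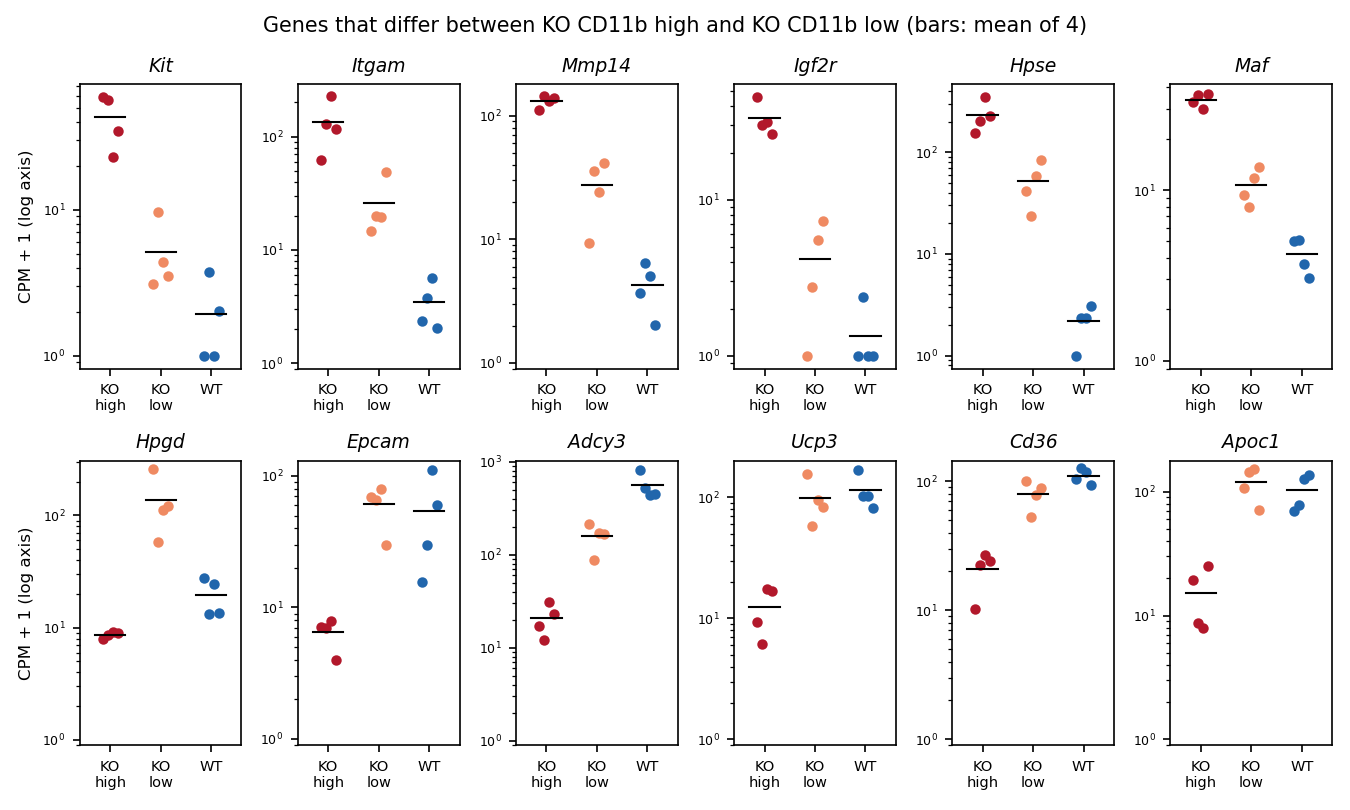
Levels of 12 genes in knockout CD11b high, knockout CD11b low and wild-type libraries (CPM + 1 on a log axis; points are libraries, bars the mean of 4). The upper row is higher in CD11b high than in CD11b low, with Kit at 22.0 to 57.9 CPM against 2.07 to 8.67 CPM, and the lower row is lower, with Hpgd at 6.86 to 8.24 CPM against 57.2 to 256 CPM.

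The RNA set made beside the chromatin libraries, for which the labels give no CD11b gate, asks whether the change is seen in other libraries of the strain. It gave 2795 of 10262 genes (27.2%), 1497 higher (14.6%) and 1298 lower (12.6%). Of 1032 genes higher in knockout CD11b high and tested in both, 760 rose there as well, which is 73.6% of the first list and 61.2% of the second. Of 1004 lower genes, 733 fell there as well, 73.0% and 68.8% of the lists, and 0 and 2 genes passed in the opposite direction. The 2 sets share no library. Pparg (-3.31), Cidec (-4.89), Siglecf (-4.31), C1qa (8.48) and Apoe (4.37) passed there in the same direction, whereas Marco (-5.98, adjusted p = 0.0503) and Car4 (-5.22, adjusted p = 0.0755) did not pass. Interferon response genes stood apart between the sets, with 25 of 25 higher (median 4.49) in the chromatin-matched knockout libraries and 7 of 22 (median 1.00) in knockout CD11b high. Isg15, for example, had 4.49 (adjusted p = 0.00364) there. This difference between the sets was not tested.

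The Lip mutant asks how the knockout compares with cells in which C/EBPβ remains as the short form alone. Lip/Lip CD11b high against Lip +/+ cells gave 3505 of 8918 genes (39.3%), 1855 higher (20.8%) and 1650 lower (18.5%). Cebpb transcripts were at 665 to 797 CPM in Lip/Lip CD11b high and 502 to 685 CPM in Lip +/+ cells. Of 942 genes higher in knockout CD11b high and tested in both, 671 also rose in Lip (71.2% of the first list, 39.0% of the second), and of 981 lower genes 671 also fell (68.4% and 43.1%), with 15 and 51 in the opposite direction. The 2 effects, each against its own controls, were unlike for 567 of 9501 genes in a test of their difference (5.97%). The log2 fold change was higher in the Cebpb knockout for 182 of them (1.92%) and lower for 385 (4.05%).

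Many cholesterol synthesis genes were lower in the knockout and higher in Lip, each against its own controls. In Lip/Lip CD11b high, 12 of 20 tested members rose and 0 fell (median 0.76), and the effects differed for 17 of 20, all lower in the knockout. Sqle was at 60.8, 58.6, 42.4 and 52.3 CPM in Lip/Lip CD11b high, against 19.7, 24.2 and 22.1 CPM in Lip +/+ (1.26, SE 0.20), and the difference from the knockout effect was -3.72 (SE 0.41, adjusted p = 1.59e-07). Fdft1 differed by -3.16 (SE 0.39).

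**Figure D4:**
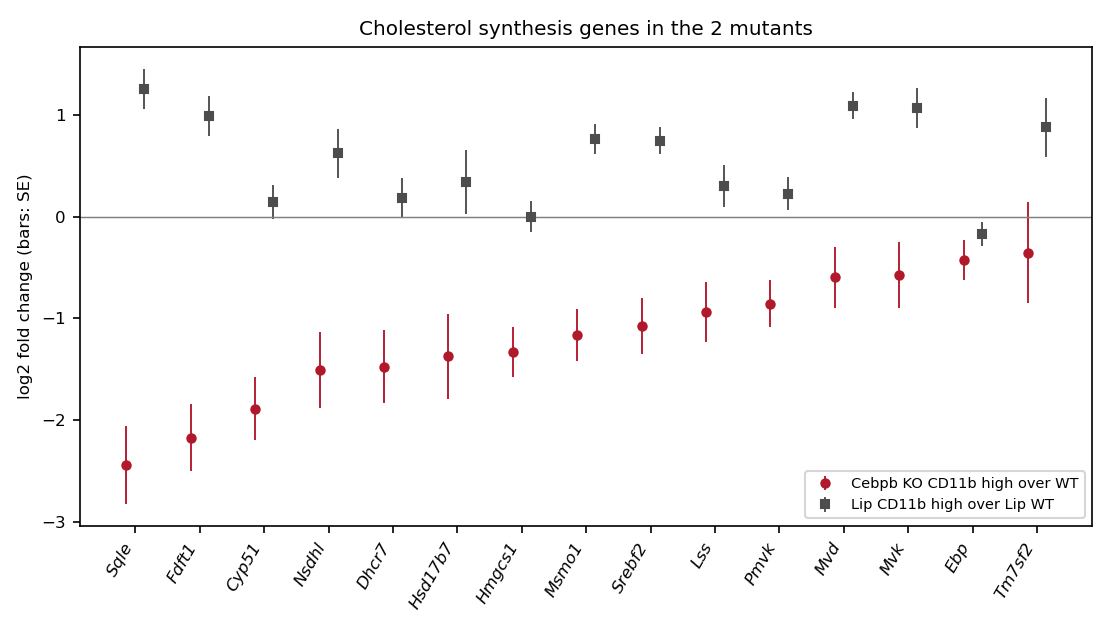
Log2 fold changes with SE bars of 15 of the 17 cholesterol synthesis genes tested in both, for knockout CD11b high over wild type (circles) and Lip/Lip CD11b high over Lip +/+ (squares). Every circle lies below 0, with Sqle at -2.44, while Sqle stands at 1.26 in Lip.

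Of 15 lipid-associated macrophage genes, 5 had a higher and 2 a lower effect in the knockout than in Lip. Trem2 had a difference of 2.43 (SE 0.27, adjusted p = 2.38e-07), with 379, 330, 358 and 429 CPM in Lip/Lip CD11b high and 300, 261 and 303 CPM in Lip +/+. Apoe, which did not pass in Lip (0.94, adjusted p = 0.432), had a difference of 3.38 (SE 0.79, adjusted p = 0.0130), with 125, 128, 138 and 691 CPM in Lip/Lip CD11b high and 134, 178 and 113 CPM in Lip +/+. Lip/Lip CD11b high replicate 4 stood apart in this gene. The controls differed as well, with Apoe higher and Trem2 lower in Cebpb wild type than in Lip +/+. The part of this in the differences was not tested. Of 30 identity genes, 13 had a lower effect in the knockout than in Lip and 2 a higher one. Among them Il18 differed by -2.15 (SE 0.26), Siglecf by -2.39 (SE 0.33) and Car4 by -4.03 (SE 0.78). Id3, which fell by 4.91 in the knockout, did not pass in Lip (0.30), a difference of -5.20 (SE 0.63). Pparg, Cidec and Cd36 fell in both, and their effects did not differ past the threshold (-0.32, SE 0.30; -0.46, SE 0.34; -0.17, SE 0.36). Of 12 MHC class II and co-stimulation genes, 6 had a lower effect in the knockout, among them Cd74 (-3.05, SE 0.48), which rose by 6.76 in Lip. Mmp12 also rose more in Lip (8.41, a difference of -4.96, SE 0.79). Epcam moved in opposite directions, falling by 3.41 in the knockout and rising by 3.46 in Lip (difference -6.91, SE 0.83), as did Cxcl3 (-3.91 and 2.39, difference -6.30, SE 0.90).

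Binding of C/EBPβ was read from 2 peak lists of wild-type alveolar macrophages of C57BL/6 mice, called per sample, with 27105 and 22558 peaks of which 18752 regions were shared. Genes with a shared region within 10 kb made up 83.4% of the lower genes (815 of 977, 95% Wilson interval 81.0 to 85.6%), 65.1% of the higher genes (660 of 1014, 62.1 to 68.0%) and 60.1% of genes not called (3750 of 6239, 58.9 to 61.3%), beside 63.5% of all 8230 tested genes with coordinates. Genes changed by over 8-fold gave 53.8% of those higher (106 of 197, 46.8 to 60.6%, an interval that reaches the share of genes not called) and 83.3% of those lower (85 of 102, 74.9 to 89.3%). Lower genes were also at a higher level in wild type (median 75.9 CPM) than higher genes (23.3 CPM) or genes not called (35.4 CPM), with 1.80 CPM for genes over 8-fold higher, and the part of this in the shares was not tested. Pparg had 12 such regions within 10 kb, with a highest deposited fold enrichment of 47.2 and 53.4 in the 2 lists. Cidec had 5 and Marco 3, but Siglecf had 1 and Fabp4 had 0, though all of these genes fell. Among genes that rose, C1qa had 0 and Apoe had 1, but Fcgr2b had 5 and Abca1 had 9. Regions were counted over the whole gene and 10 kb on each side, so counts of genes of unlike length cannot be compared.

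In promoters the lower genes again had the largest share. A shared region lay over 29.3% of 1054 windows of lower genes (26.6 to 32.1%), 17.6% of 1075 windows of higher genes (15.4 to 20.0%) and 21.7% of 6503 windows of genes not called (20.8 to 22.8%). Within windows that carried a region, TTGCNNAA on either strand was present in 28.5% for lower genes (88 of 309), 14.8% for higher genes (28 of 189) and 15.1% for genes not called (213 of 1414). Windows without a region held it in 6.44%, 6.55% and 6.19%, and all 32851 windows of the table in 10.8%. The AP-1 motif TGANTCA was in 6.55% of lower, 6.70% of higher and 4.55% of uncalled windows, and in 7.81% of the table. The PPAR-RXR motif, 2 copies of AGGTCA with 1 base between them, was found in 0 windows of tested genes and in 13 of the table. A window is not independent of others of the same gene, and these shares are descriptions without a test.

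**Figure D5:**
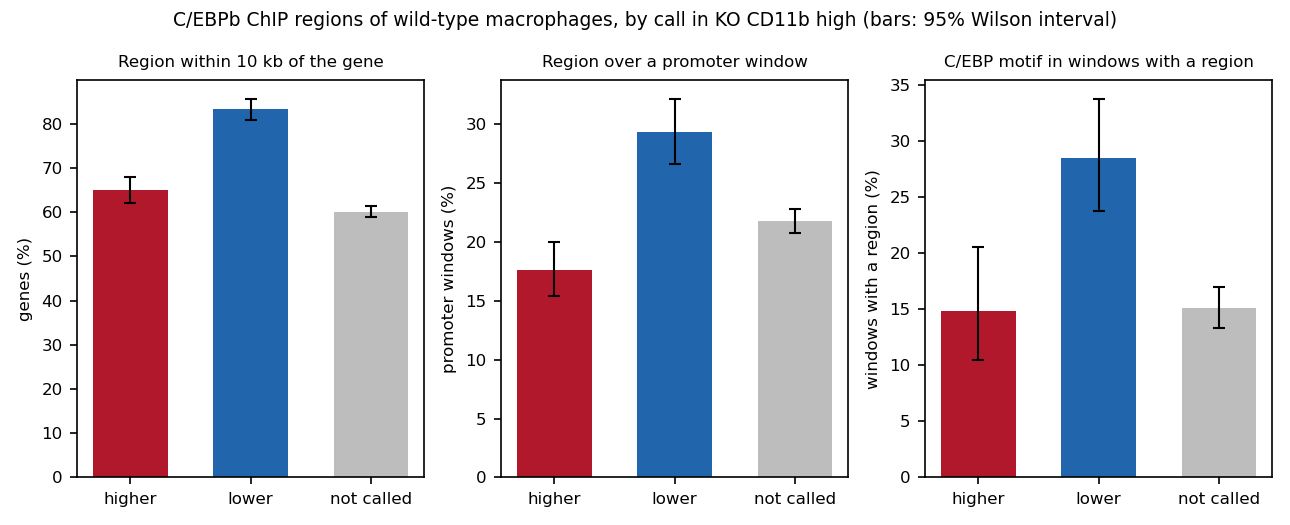
Shares of genes with a C/EBPβ region within 10 kb (left), of promoter windows with a region (middle) and of such windows that hold the C/EBP motif (right), for genes higher, lower or not called in knockout CD11b high over wild type; error bars are 95% Wilson intervals. The bar of the lower genes is the tallest in each panel, at 83.4, 29.3 and 28.5%.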

How the data were processed

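RNA was measured with 3′ barcoded libraries from FACS-sorted bronchoalveolar lavage macrophages, per the labels' protocols. The deposited counts are raw whole-number counts per gene, and STAR 2.6.1a, featureCounts 1.6.3 and GRCm38 are named in the submitters' processing notes. No source used here states how strand and molecule barcodes were handled. Reads of near-identical or antisense genes may be misassigned. The ChIP lists hold the authors' fold enrichment and −log10 q per peak, called per sample, with MACS2 2.2.7.1 named in the same notes.

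Counts were tested with edgeR 4.0.16 (robust quasi-likelihood test, TMM factors, filterByExpr with a minimum count of 10, Benjamini-Hochberg adjustment over all genes tested) in R 4.3.3. The Cebpb comparisons come from 1 fit of 12 libraries, Lip from 11 libraries, the test of the difference from all 23, and the chromatin-matched set from 6. That table holds 8 further columns that were not used. Alternatives used DESeq2 1.42.0, other scalings, no filter, a replicate block and each library left out. The fit of knockout CD11b high against wild type was also run on simulated counts, and the other steps were not. Libraries of a group differed by more than sampling noise, so none was taken as a re-sequenced copy of another. The least difference was between wild-type replicates 3 and 4, at a chi-square of 1.83 per degree of freedom. This check cannot tell whether libraries came from the same animal.

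Shared regions overlap by at least 1 base in both ChIP lists, and genes were placed by RefSeq (8230 of 8502 tested genes matched, GRCm38.p6). The genes described are Cebpb, the 12 largest rises and falls with at least 20 CPM in 1 group and no overlap, up to 4 called members of each list, a fixed set of known genes and, from the direct comparison, the 6 largest rises and falls. Some genes are not reported here. Further list members were named after their values were seen. The members and the 29 gene lists were chosen with earlier results of these data known.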

Additional observations from a re-analysis of the deposited data

Results flagged for a closer look

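Of 199 groups of 4 libraries examined, 12 met Dixon's criterion for a library far from the rest, where chance gives about 1 in 20 for normally distributed values. A group with 0 in all other libraries meets it at any count. That was so for Kcnj15, Rai14, Igf2r, Sorl1 and Ccl7 below, whose flags therefore say little about the libraries. Among genes lower in knockout CD11b high, Ndufa4 had 10.98 CPM in knockout CD11b high replicate 3, against 34.9 to 39.7 CPM in the other libraries of the group. Fabp1, a fatty acid carrier gene, had 39.6 CPM in knockout CD11b high replicate 1, against 9.91 to 13.7 CPM. Treml4 had 2.75 CPM in replicate 3 and Kcnj15 0.762 CPM in replicate 1 of the same group, the second with 0 in the other libraries. Siglecf had 106.4 CPM in knockout CD11b low replicate 1, against 52.8 to 57.2 CPM, and Itgam 47.8 CPM in knockout CD11b low replicate 4, against 13.8 to 19.1 CPM.

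In wild type, replicate 2 had 312 CPM of Csf2ra, against 251 to 258 CPM in the other wild-type libraries, and 1.37 CPM of Rai14 and of Igf2r, each with 0 elsewhere. Wild-type replicate 4 had 5.18 CPM of Ccl2 and 1.04 CPM of Sorl1, and replicate 3 had 0.669 CPM of Ccl7.

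The effects of the Cebpb knockout and of Lip on CD11b high cells differed for 567 genes. These include 17 cholesterol synthesis genes and 13 alveolar macrophage identity genes whose log2 fold change was lower in the knockout.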

How the results depend on the processing

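The knockout CD11b high against wild type count of 2044 genes was 2043 with DESeq2 size factors, 2396 without the count filter, 2157 with DESeq2, 2168 with library totals alone and 1823 with the 8 libraries alone, and 1679 to 2596 with 1 library left out. The direct CD11b comparison, at 323, gave 255 to 386 under those settings and 152 to 371 with 1 library left out. The chromatin-matched count of 2795 ran from 1894 to 3787, the Lip count of 3505 from 2958 to 3281 and the count of differing effects, 567, from 436 to 726 when 1 library was left out. Csf2ra, which never passed, turned to -0.026 with library totals alone (adjusted p = 0.935).

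The labels do not say whether equal numbers mark paired libraries. Same-numbered deviations correlated between -0.356 and 0.0825 for knockout CD11b high and wild type, and 0 of 4 libraries correlated best with their own number. For knockout CD11b high and CD11b low they correlated between -0.052 and 0.171, and 1 of 4 libraries did so. With 4 libraries per group, these correlations cannot exclude pairing. With the number as a replicate block, 1733 genes passed against wild type and 230 in the direct comparison, where Pparg (adjusted p = 0.0996) and Fabp4 (adjusted p = 0.0733) no longer did. The block gave 2675, 3452 and 490 calls for the chromatin-matched, Lip and difference tests.

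Shares of genes near a C/EBPβ region moved with the definition, and the lower genes kept the largest share in each. For higher, lower, uncalled and all tested genes, in that order, they were 56.1, 76.5, 49.6 and 53.6% within 2 kb, 84.5, 93.8, 81.9 and 83.7% within 50 kb, 78.7, 91.9, 77.0 and 78.9% with regions of either list, and 33.6, 53.7, 26.8 and 30.9% at a −log10 q of at least 20. With the 250 bases before the start alone, the C/EBP motif was in 7.34% of uncalled windows and 9.56% of the table, and the AP-1 motif in 4.01% and 6.75%.

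Depth limits genes below the filter of 10 counts, which were not tested, and the cells' number per library is not given beyond the range in the labels.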
